A study of Rattus norvegicus with 3 samples.

Results

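Cnmd, Serpinf1, Cytl1, Acan, Matn1 and Comp, 6 of the 32623 genes in the matrices, were described across postnatal development of the rat cochlea. They were taken as a fixed list of genes known from cartilage, chosen with earlier results of these data known. The paper lists Cnmd, Cytl1 and Serpinf1 as genes of a cluster that grew from P1 to P7 and was gone at P14. Their stage pattern and shared clusters are therefore not independent of that choice. Cells of the cochlear basal membrane were pooled from untreated Sprague-Dawley rats of 3 ages, 1, 7 and 14 days after birth (P1, P7 and P14). They were captured with 10x Genomics 3′ chemistry, with 1 library at each stage. Barcodes with more than 500 genes, fewer than 5000 and under 25% of their unique molecular identifiers (UMIs) on mitochondrial genes were kept, which left 12779 cells at P1, 12581 at P7 and 5281 at P14. The median cell held 6565 UMIs at P1, 6878 at P7 and 1614 at P14.

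Cartilage is built on type II collagen fibrils and on aggrecan, a large proteoglycan encoded by Acan, which holds water in the tissue. Matrilin 1 (Matn1) and cartilage oligomeric matrix protein (Comp) are adaptor proteins that join these components. Cartilage is also free of vessels, and chondromodulin (Cnmd) and pigment epithelium-derived factor (Serpinf1) are secreted proteins known to inhibit vessel growth, while Cytl1 encodes a small secreted protein first described in blood progenitors and made by chondrocytes. In the cochlea, collagens of the cartilage type are also part of the tectorial membrane and of the connective tissue of the spiral ligament and limbus.

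A level is given here in CPM, the UMIs of a gene per 1000000 UMIs summed over a set of cells. Values in brackets after a level or a ratio are exact 95% intervals that cover counting error only. With 1 library at each stage no difference between stages was tested, and a stage cannot be told apart from its library. The P14 cells were shallower, so shares of cells with a UMI were also taken after each cell was thinned to 1000 UMIs. In these 3′ counts, levels were compared between cells and not between genes.

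The labels name the cells as greater epithelial ridge cells, but the libraries held connective tissue, glia, neurons, vessels and blood cells as well. Clusters were therefore given broad classes from marker genes, and connective tissue clusters of all kinds were joined as stromal-like. This class made up 65.9% of cells at P1, 55.2% at P7 and 55.1% at P14. Its cells lay in different clusters at each stage, mainly the clusters led by Isyna1 and by Plagl1 at P1, by Dlx5 and by Aard at P7, and by Coch and by Ptgds at P14. Endothelial-like cells were 1.30%, 1.49% and 20.5% of cells in the same order, and cochlear epithelium-like cells 2.18%, 1.72% and 1.50%. No cluster could be named cartilage alone. With the 6 genes left out, markers of cartilage were highest in the cluster led by Gcg, Car3 and Otos, at 13844 CPM summed, and in the cluster led by Dlx5, Sfrp4 and Col9a1, at 13557 CPM. In tissue at each stage, fewer cells of a kind and less RNA in each cell cannot be told apart in a level taken over all cells.

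Promoter sequences are shown for Serpinf1 and Cytl1, the genes whose levels were most alike across clusters. Each is the 250 bases before the start of the gene in RefSeq, written 5′ to 3′ in the direction of the gene, and capitals mark matches to the motifs searched. The Serpinf1 sequence lies on the minus strand at chr10:60760899-60761148 and the Cytl1 sequence on the minus strand at chr14:77283646-77283895, both in the assembly GRCr8, while the counts were made on rn6.
Serpinf1: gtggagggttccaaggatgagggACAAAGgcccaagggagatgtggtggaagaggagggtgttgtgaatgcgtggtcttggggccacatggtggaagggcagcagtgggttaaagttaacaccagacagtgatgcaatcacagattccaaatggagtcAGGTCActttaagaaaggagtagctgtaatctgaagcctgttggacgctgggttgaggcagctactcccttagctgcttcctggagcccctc
Cytl1: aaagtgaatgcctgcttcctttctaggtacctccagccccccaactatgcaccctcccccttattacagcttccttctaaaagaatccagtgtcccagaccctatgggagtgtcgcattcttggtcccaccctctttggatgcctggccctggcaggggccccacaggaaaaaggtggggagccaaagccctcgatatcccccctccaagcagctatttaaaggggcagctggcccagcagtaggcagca

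Both strands were searched for the SOX core letters ACAAAG and ACAATG, the nuclear receptor site AGGTCA and the TATA letters TATAAA. Serpinf1 held ACAAAG starting 227 bases before the gene and AGGTCA starting 92 bases before it, both on the strand of the gene. Cytl1 held none of the 4. Among 27457 rat promoters of this length, 15.96% held ACAAAG, 10.9% ACAATG, 13.7% AGGTCA and 13.1% TATAAA, so these matches are common. Of the 6 genes, 4 were matched in the promoter table, and Cnmd and Matn1 were not.

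Over all kept cells, the antiangiogenic genes and Cytl1 were highest at P7 and lowest at P14, while Acan was highest at P14. Cnmd stood at 133 CPM at P1 (131 to 135), 297 CPM at P7 (293 to 300.3) and 81.1 CPM at P14 (76.0 to 86.4). Serpinf1 stood at 430.3 CPM at P1 (426 to 434), 713 CPM at P7 (707 to 718) and 74.6 CPM at P14 (69.7 to 79.7). Cytl1 stood at 48.8 CPM at P1 (47.4 to 50.2), 121 CPM at P7 (118 to 123) and 21.9 CPM at P14 (19.3 to 24.8). Among the 7750 genes with at least 10 CPM, 8.61% were at least 2-fold higher at P7 than at P1. Between P7 and P14, 9.88% were at least 2-fold lower. From P1 to P7 the level was 2.23-fold higher for Cnmd (2.18 to 2.28), 1.66-fold higher for Serpinf1 (1.64 to 1.68) and 2.47-fold higher for Cytl1 (2.39 to 2.56). From P7 to P14 it was 3.66-fold lower for Cnmd (3.43 to 3.91), 9.56-fold lower for Serpinf1 (8.94 to 10.2) and 5.51-fold lower for Cytl1 (4.87 to 6.26).

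The matrix genes were scarce. Acan had 82 UMIs at P1, 286 at P7 and 101 at P14, which gave 0.837 CPM (0.665 to 1.04), 3.07 CPM (2.73 to 3.45) and 8.68 CPM (7.07 to 10.5). Its level was 3.67-fold higher at P7 than at P1 (2.86 to 4.75) and 2.82-fold higher again at P14 (2.23 to 3.55). Comp had 25, 111 and 21 UMIs, or 0.255 CPM (0.165 to 0.377), 1.19 CPM (0.981 to 1.44) and 1.80 CPM (1.12 to 2.76). The P7 level of Comp was 4.67-fold that of P1 (3.01 to 7.53), while the interval of the ratio of P14 to P7 spanned 1 (0.901 to 2.43). Matn1 had 23, 23 and 5 UMIs in whole libraries, and no difference between stages was detectable at this depth.

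The share of cells with a UMI followed the same order after thinning. For Serpinf1 it was 26.4% of cells at P1, 34.6% at P7 and 7.41% at P14, and 63.7%, 65.7% and 11.6% before thinning. For Cnmd it was 7.28%, 9.91% and 2.82%, and 17.3%, 21.8% and 4.62% before thinning. For Cytl1 it was 4.32%, 7.35% and 1.50%, and 16.6%, 20.5% and 2.20% before thinning. For Acan it was 0.0785%, 0.291% and 1.01%, and 0.516%, 1.95% and 1.51% before thinning.

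**Figure D1:**
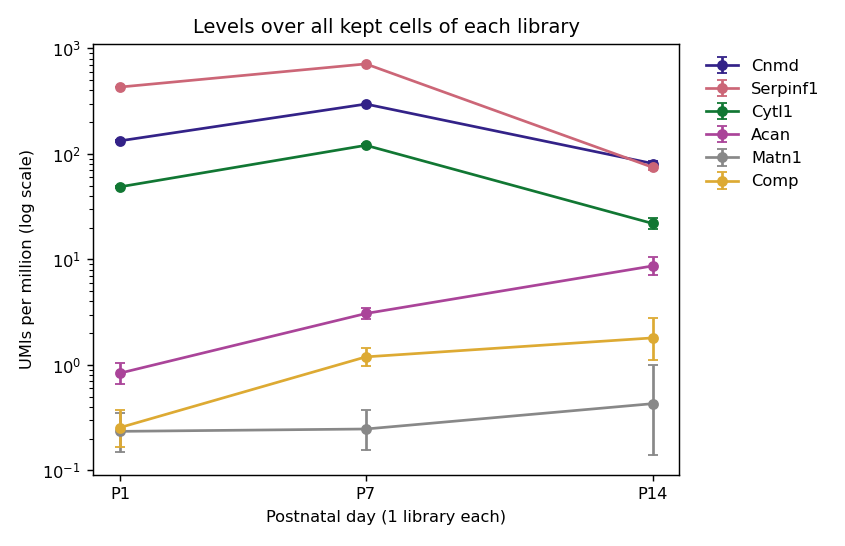
Level of each of the 6 genes in CPM (log scale) at P1, P7 and P14, with 1 library at each stage. Points are levels over all kept cells and bars are exact 95% counting intervals. Cnmd, Serpinf1 and Cytl1 peak at P7, whereas Acan goes from 0.837 to 8.68 CPM.

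Cnmd was carried mainly by the stroma at P1 and P7, with 63.5% and 77.6% of its UMIs, and at P14 mainly by the cluster classed as epithelium-like. The class of these cells was uncertain at P14. Those with Cnmd held 88380 CPM of mesenchyme and fibrocyte markers summed, against 2597 CPM of epithelial markers. In stromal-like cells Cnmd stood at 135 CPM at P1 (132 to 138), 404 CPM at P7 (399 to 410) and 12.8 CPM at P14 (9.99 to 16.2). In cochlear epithelium-like cells it stood at 1706 CPM at P1 (1654 to 1760), 1853 CPM at P7 (1791 to 1917) and 2108 CPM at P14 (1935 to 2292). The level in epithelium-like cells thus differed by at most 1.14-fold between successive stages (1.04 to 1.25 for P14 against P7). The stromal level was 31.5-fold lower at P14 than at P7 (24.9 to 40.4). At P14 the 79 epithelium-like cells held 58.1% of all Cnmd UMIs of the library. That share was 0.106% when each cell was classed by its own markers in place of its cluster. In other classes the P14 level was 1.60 CPM in B cells, 27.1 CPM in endothelium and 28.6 CPM in macrophages. It was 54.2 CPM in pericytes, from 5 UMIs, and 246 CPM in glia. The stromal level at P14 lay within the range of these classes and the epithelial level above it, and the part of RNA of other cells was not tested.

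Within the stroma, Cnmd was concentrated in the cluster led by Gcg, Car3 and Otos. Otos encodes otospiralin, a product of cochlear fibrocytes. This cluster had 95 cells at P1, 798 at P7 and 0 at P14, so it comes mostly from the P7 library and may reflect that library. Cnmd stood there at 1388 CPM at P1 (1307 to 1472) and 2104 CPM at P7 (2072 to 2137), a 1.52-fold difference (1.43 to 1.61). The median cell at P7 had 16 Cnmd UMIs, the highest had 96, and 88.2% of cells had at least 1. In the cluster led by Isyna1, Cnmd was 4.01-fold lower at P7 than at P1 (3.51 to 4.59), at 66.2 against 265 CPM. In the cluster led by Dlx5 it was 1.92-fold lower, at 212 against 407 CPM.

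The Gcg cluster held 13.3% of stromal Cnmd UMIs at P1 and 75.1% at P7. Outside it, stromal Cnmd was 118 CPM at both P1 (116 to 121) and P7 (114 to 121), a ratio of 0.993 (0.958 to 1.03), and 12.8 CPM at P14, which was 9.17-fold lower than at P7. The Gcg cluster was 1.13% of stromal cells at P1 and 11.5% at P7. The like levels outside it are sums over clusters that differed both ways. Cnmd was lower at P7 in the Isyna1 and Dlx5 clusters. It was 1.31-fold higher in the cluster led by Plagl1, 1.39-fold in that led by Aldh1a2 and 2.17-fold in that led by Cav1. The part of cluster sizes was not tested.

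In the epithelium, Cnmd was higher in cells with a UMI of Otoa, which encodes otoancorin, a protein of the surface of the spiral limbus. The 145 cells with Otoa had 3303 CPM of Cnmd and the 430 without had 995 CPM, a 3.32-fold difference (3.17 to 3.48). The same comparison gave 4.22-fold at P1 and 2.99-fold at P7. Cells with Tectb, which encodes a tectorial membrane protein, had less Cnmd than those without, at 881 against 2191 CPM. Cells with Otoa were deeper, with a median of 9011 UMIs against 4902. At P14, epithelium-like cells with Epcam had less Cnmd than those without, at 1784 against 3222 CPM. The same held for Cldn9, at 1635 against 2722 CPM, and Krt18, at 1342 against 2660 CPM, while the interval of the ratio for Cdh1 spanned 1. At P1, cells with Epcam had 6.75-fold more Cnmd, and cells with Cldn9 or Krt18 also had more.

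At P14 the 57 epithelium-like cells with Cnmd were compared with the 22 without. The Cnmd cells held 9174 CPM of Epyc, a small proteoglycan, against 147 CPM, a 62.4-fold difference (32.8 to 137). Ucma, an inhibitor of calcification named for cartilage, stood at 2954 against 163 CPM, and Oc90, an otoconial protein, had 80 UMIs or 403 CPM in cells with Cnmd and 0 UMIs in those without, which allows up to 49.0 CPM. Genes of potassium transport were the other way, with Kcne1 at 574 against 2875 CPM and Kcnq1 at 116 against 376 CPM. These genes were in part carried by few cells, since Epyc was found in 11 and Oc90 in 10 of the 57 cells with Cnmd, and Ucma in 39. The 23 markers of mesenchyme and fibrocytes summed to 88380 CPM in the cells with Cnmd and 77262 CPM in those without, 8 osteoblast markers to 14115 and 33355 CPM, 11 glial markers to 5485 and 2581 CPM and the 13 epithelial markers to 2597 and 1699 CPM. The median cell had 2322 UMIs with Cnmd and 2727 without, and the part of RNA of other cells was not tested.

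Glia-like cells had Cnmd mainly at P14. The level was 12.4 CPM at P1 (10.1 to 15.1), 23.1 CPM at P7 (20.8 to 25.6) and 246 CPM at P14 (214 to 281), or 10.6-fold higher at P14 than at P7 (8.94 to 12.6). The P14 glia lay in a cluster with Mt3 and S100a6 among its leading genes, with 331 cells from this library, and the earlier glia in clusters with Pmp2 and with Pcsk1 among their leading genes. After thinning, 12.7% of P14 glia had Cnmd against 0.892% of P14 stromal cells. In this cluster 85 cells had Cnmd and 246 had none. Prx, which encodes the myelin protein periaxin of Schwann cells, was present in both, at 1231 CPM in cells with Cnmd and 1251 CPM in those without. Genes of oligodendrocytes were lower in cells with Cnmd, namely Mog at 23.7 against 408 CPM, Mobp at 193 against 1189 CPM and Cldn11 at 328 against 2082 CPM. Few cells carried Mog, 1 of 85 with Cnmd and 17 of 246 without, or Mobp, 3 and 21, while Cldn11 was found in 29 and 77. Col2a1, the chain of type II collagen, was higher at 342 against 55.1 CPM, and so was Hey2, a target of Notch signalling, at 294 against 33.1 CPM.

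RNA of other cell types was looked for in these glia. Of 13 epithelial markers, 1 was found in cells with Cnmd and 4 in those without, with summed levels of 169 and 118 CPM. Otoa and Oc90 were at 0 UMIs in both sets, which allows up to 10.1 CPM in the cells with Cnmd, while Epyc stood at 84.5 against 18.4 CPM. Of 13 cartilage markers, 10 were found in cells with Cnmd and 9 in those without, at 893 against 301 CPM summed, and 23 markers of mesenchyme and fibrocytes summed to 3960 against 2227 CPM. The cells with Cnmd were deeper, with a median of 2925 UMIs against 1831. The part of depth or of RNA of other cells in the result was not tested.

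**Figure D2:**
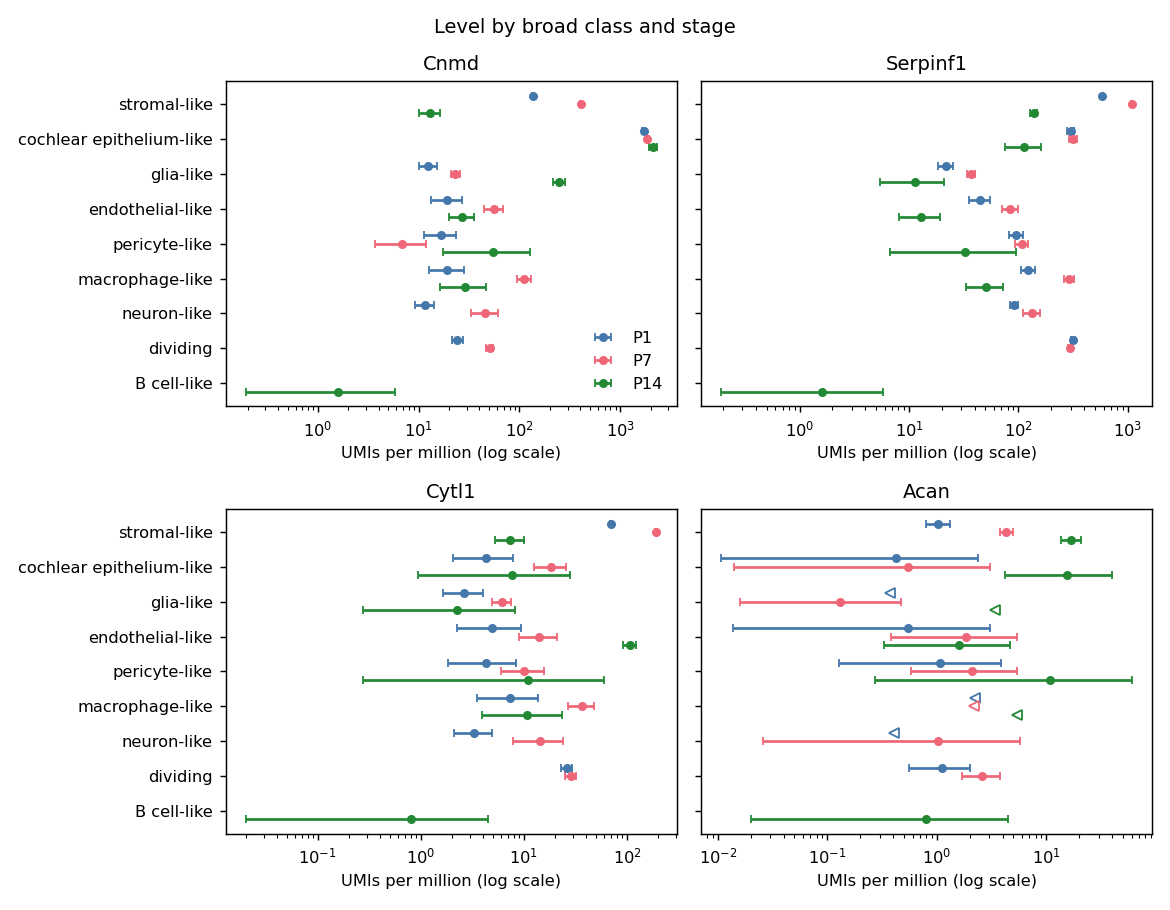
Level of Cnmd, Serpinf1, Cytl1 and Acan in UMIs per 1000000 (CPM, log scale) by broad cell class and stage, for classes with at least 50 cells of that stage, with exact 95% counting intervals and open triangles at the limit of 3 counts where no UMI was found. Cnmd stays between 1706 and 2108 CPM in epithelium-like cells at all 3 stages, Cytl1 in endothelial-like cells reaches 106 CPM at P14, and Serpinf1 in the stromal-like class goes from 583 to 1080 and then 138 CPM.

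Serpinf1 was a gene of the stroma at every stage. Stromal-like cells held 583 CPM at P1 (577 to 589), 1080 CPM at P7 (1072 to 1089) and 138 CPM at P14 (128 to 148). They carried 85.0%, 86.4% and 86.5% of Serpinf1 UMIs at the 3 stages, so that its place changed little while its level was 1.85-fold higher at P7 than at P1 (1.83 to 1.88) and 7.85-fold lower at P14 than at P7 (7.31 to 8.45). Epithelium-like cells had 302, 316 and 112 CPM and macrophage-like cells 123, 289 and 50.1 CPM. B cell-like cells at P14 had 1.60 CPM. The share of P7 cells with a UMI after thinning was 52.6% in the stroma, at a median depth of 7266 UMIs, and 3.33% in glia, at 4525 UMIs. Before thinning these shares were 92.4% and 14.6%.

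Among stromal clusters Serpinf1 was spread more widely than Cnmd. It was highest in the Gcg cluster at 2410 CPM, followed by the clusters led by Isyna1 at 1013 CPM, by Dlx5 at 943 CPM and by Aard at 840 CPM. In the Gcg cluster the level was 1394 CPM at P1 (1313 to 1478) and 2516 CPM at P7 (2480 to 2551). The Isyna1 cluster went from 947 to 1405 CPM, and the Dlx5 cluster had 892 and 946 CPM. Of 17 clusters of any class with at least 50 cells at both P1 and P7, the interval of the ratio lay above 1 in 14 and below 1 in 0. All 4 clusters with at least 50 cells at both P7 and P14 had lower Serpinf1 at P14. They were endothelial-like, pericyte-like, epithelium-like and macrophage-like. No stromal cluster had 50 cells at both of these stages, so the lower stromal level at P14 was not seen within a cluster. The ratio of Cytl1 to Serpinf1 UMIs at P7 was 0.175 in stroma, 0.167 in endothelium, 0.165 in glia and 0.126 in macrophages. It was 0.109 in neurons, 0.0968 in dividing cells, 0.0931 in pericytes and 0.0575 in epithelium-like cells. The part of RNA of other cells in the levels outside the stroma was not tested. The Gcg cluster held 3.08% of stromal Serpinf1 UMIs at P1 and 33.6% at P7. Outside it, stromal Serpinf1 was 572 CPM at P1 and 838 CPM at P7. The ratio was 1.46 there (1.44 to 1.49), against 1.85 in the whole class.

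Cytl1 was stromal at P1 and P7 and endothelial at P14. Stromal-like cells held 69.9 CPM at P1 (67.8 to 72.0), 189 CPM at P7 (186 to 193) and 7.33 CPM at P14 (5.23 to 9.98), with 89.9% and 89.5% of Cytl1 UMIs at the first 2 stages and 15.7% at P14. Endothelial-like cells held 4.93 CPM at P1 (2.26 to 9.36), 14.1 CPM at P7 (8.92 to 21.1) and 106 CPM at P14 (91.7 to 122). The endothelial level was 7.53-fold higher at P14 than at P7 (4.88 to 12.2), and the stromal level was 25.9-fold lower (19.0 to 36.2). These cells carried 199 of the 255 Cytl1 UMIs at P14, or 78.0%. At P14 the stromal level was no higher than the 10.7 CPM of macrophages (3.94 to 23.4).

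In the stroma the Gcg cluster again had the highest level, with 559 CPM at P1 (508 to 613) and 838 CPM at P7 (817 to 858). The clusters led by Isyna1 and by Dlx5 had 133 and 132 CPM. The Gcg cluster held 10.3% of stromal Cytl1 UMIs at P1 and 63.8% at P7. Outside it the level was 63.5 CPM at P1 and 80.2 CPM at P7, a ratio of 1.26 (1.21 to 1.32), and 7.33 CPM at P14.

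The endothelial Cytl1 at P14 was in few cells, 69 of 1085. They were set beside the other 1016 in vessel genes that were chosen after values were seen. Of 8 arterial genes, the interval of the ratio lay above 1 in 6 and spanned 1 for Hey1 and Sema3g. Gja5, the connexin of arterial endothelium, stood at 282 against 3.43 CPM, an 82.3-fold difference (34.3 to 239), and was found in 25 of the 69 cells and 6 of the 1016. Fbln5, an elastic fibre protein, stood at 752 against 37.7 CPM, Gja4 at 321 against 99.9 CPM and the Notch ligand Dll4 at 164 against 61.1 CPM. Eln, the gene of elastin, was at 7370 against 510 CPM and the Wnt inhibitor Dkk2 at 666 against 9.14 CPM.

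Plvap, a protein of fenestrated capillaries, was lower in the same cells, at 157 against 760 CPM, and so was Aplnr, the apelin receptor, at 15.7 against 232 CPM. Of 4 venous genes, Vwf was lower at 525 against 967 CPM, Ephb4 was alike at 164 against 166 CPM, and the intervals for Nr2f2 and Selp spanned 1. The 3 lymphatic genes had no UMI in cells with Cytl1, which allows up to 23.5 CPM each, against 34.8 CPM summed in the others. The 8 endothelial markers were alike, at 6900 against 6893 CPM summed, and so were 23 mesenchymal markers at 5952 against 5991 CPM. The median depth was 1614 UMIs in cells with Cytl1 and 1201 in the others. The ratio of Cytl1 to Serpinf1 UMIs was 8.29 in P14 endothelium and 0.0533 in P14 stroma. The part of depth or of RNA of other cells was not tested.

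**Figure D3:**
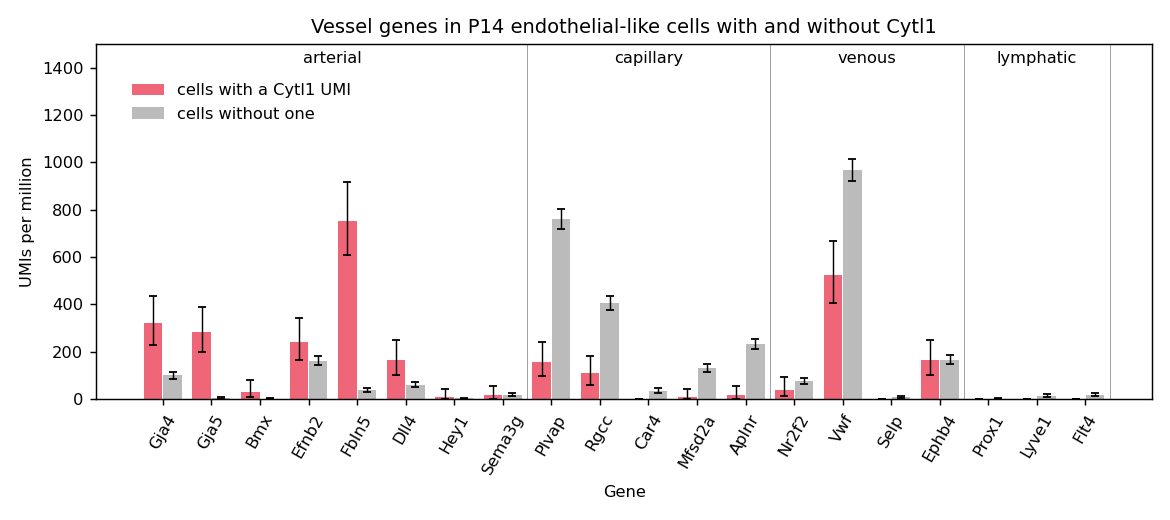
Level of vessel genes in CPM in P14 endothelial-like cells with Cytl1 (69 cells, red bars) and without (1016 cells, grey bars), grouped by vessel type, with exact 95% counting intervals for genes with a UMI. Gja5 and Fbln5 lie higher in cells with Cytl1, at 282 and 752 CPM, while Plvap lies lower, at 157 against 760 CPM.

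**Figure D4:**
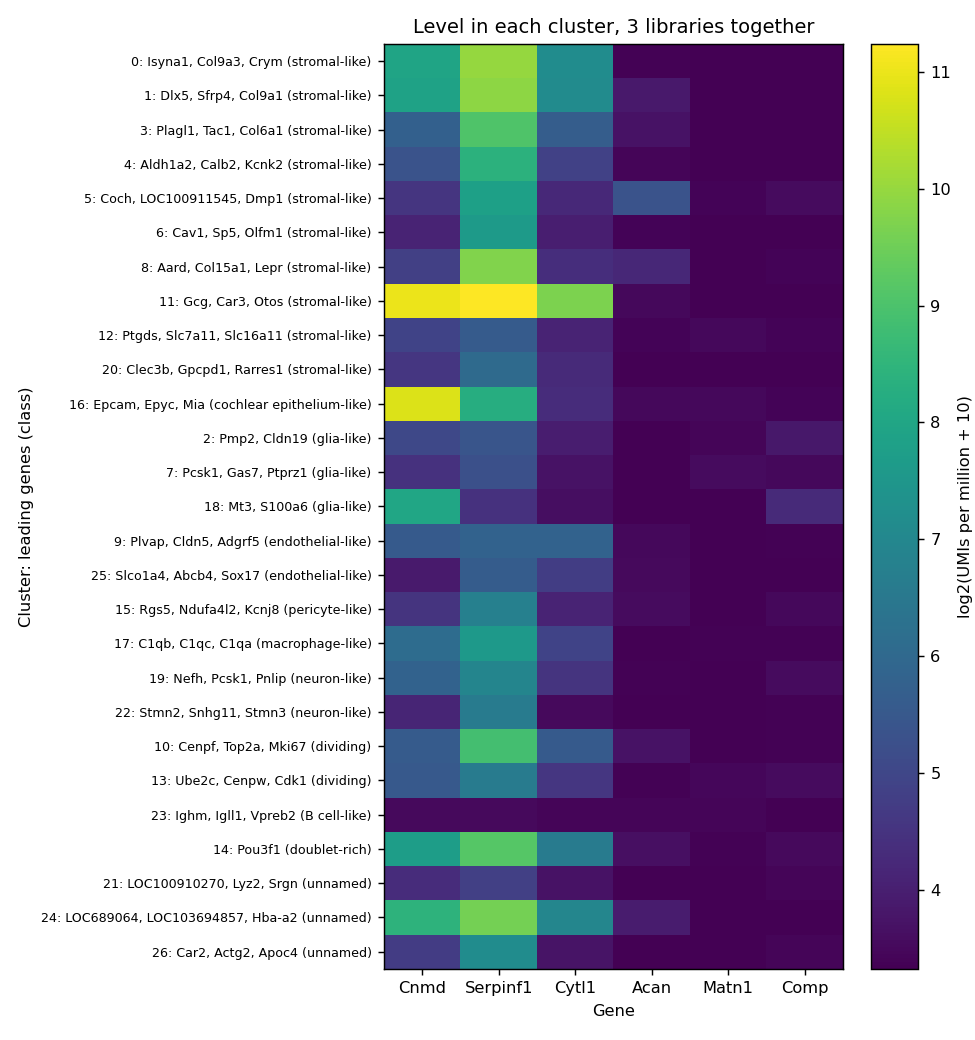
Level of each of the 6 genes as log2(CPM + 10), by colour, in the 27 clusters of at least 50 cells over the 3 libraries, each named by its class and its leading genes, glial marker genes left out of the names. The Gcg, Car3 and Otos cluster has the highest level of Cnmd, Serpinf1 and Cytl1, at 2037, 2410 and 812 CPM.

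Acan was found in stromal-like cells, whose level was 1.03 CPM at P1 (0.788 to 1.31), 4.32 CPM at P7 (3.77 to 4.91) and 16.8 CPM at P14 (13.6 to 20.7). This was 4.21-fold higher at P7 than at P1 (3.17 to 5.66) and 3.90-fold higher again at P14 (3.03 to 4.99). Glia had 0, 2 and 0 Acan UMIs at the 3 stages, where 0 allows up to 0.376 CPM at P1 and 3.40 CPM at P14. The part of RNA of other cells was not tested. At P7 the gene was in the clusters led by Aard, at 8.60 CPM with 87 UMIs, and by Dlx5, at 4.91 CPM with 105 UMIs. In the Gcg cluster it was low, at 1.44 CPM at P7 (0.718 to 2.57).

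At P14 the cluster led by Coch, LOC100911545 and Dmp1 carried 91 of the 101 Acan UMIs, at 31.0 CPM (24.9 to 38.03), in 72 of 1731 cells. Collagen genes of cartilage were higher in these 72 cells than in the other 1659. Col2a1 stood at 3632 against 772 CPM, a 4.71-fold difference (4.29 to 5.15), Col9a2 at 1241 against 380.4 CPM and Col11a2 at 1726 against 579 CPM. Snorc, a membrane proteoglycan of cartilage, stood at 126 against 7.58 CPM. Of 10 cartilage genes, the interval of the ratio lay above 1 in 7 and spanned 1 for Sox9, Chad and Hapln1. Of 6 bone genes, the osteocalcin gene Bglap was lower at 1612 against 4893 CPM and Ibsp at 1025 against 3142 CPM, Dmp1 was 1.41-fold higher, the intervals of Alpl and Spp1 spanned 1, and Sp7 had 0 UMIs against 3. Bglap and Ibsp were also among the 6 lowest genes, and Col2a1 and Otos among the 6 highest, which were chosen by these values. The cells with Acan also had 11 glial markers at 2997 against 1139 CPM summed, and Otos at 8116 against 1120 CPM. Their median depth was 1937 UMIs against 1462, and the part of glial RNA or depth in the result was not tested.

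Comp was in glia more than in stroma. Glia-like cells had 11, 70 and 9 of its UMIs, at 1.38, 4.57 and 10.2 CPM, and held 57.3% of the 157 in all. Stromal-like cells held 18, at 0.150 CPM. The cluster of myelinating glia with Pmp2 and Cldn19 among its leading genes had 74 UMIs at 4.38 CPM. At P7 the 62 glia with Comp had more myelin RNA than the other 2836, with Prx at 399.9 against 183 CPM and Mag at 243 against 80.2 CPM. Pou3f1, the factor of promyelinating Schwann cells, stood at 1350 against 521 CPM. The cells with Comp were deeper, with a median of 6048 UMIs against 4494, and the part of depth was not tested.

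Matn1 was close to the limit of detection, with 51 UMIs in all. Glia-like cells had 25 of them, at 1.03 CPM (0.669 to 1.53), and stromal-like cells 6, at 0.0500 CPM (0.0184 to 0.109). The epithelium had 6 UMIs in 3 cells, all at P1. The counts were too low to order the stages within a class.

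Co-detection was followed in stromal-like cells thinned to 1000 UMIs each. At P1, Serpinf1 was found in 59.7% of cells with Cnmd (56.1 to 63.4) and in 31.9% of cells without (30.9 to 33.0). At P7 these shares were 74.2% (71.2 to 77.0) and 49.2% (48.0 to 50.5). Cytl1 was found at P1 in 21.4% of cells with Cnmd and in 4.59% of those without, and at P7 in 40.2% and 7.37%. Cytl1 was also more frequent in cells with Serpinf1, in 8.25% against 4.87% at P1 and in 15.2% against 7.99% at P7. Unthinned, Serpinf1 was in 91.3% of P1 stromal cells with Cnmd and in 75.0% of those without. The ratio of these shares was smaller without thinning than with it, at P7 as well as at P1.

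Both inside the Gcg cluster and outside it, cells with Cnmd more often had the other genes. At P7, 85.2% of its cells with Cnmd had Serpinf1 (81.9 to 88.1) against 59.7% of its cells without (53.5 to 65.7), and 56.7% against 37.3% had Cytl1. In the other stromal cells at P7 the shares were 59.2% (54.1 to 64.1) against 48.8% (47.5 to 50.1) for Serpinf1, and 17.6% against 6.002% for Cytl1. All 3 genes were found together in 34.0% of thinned Gcg cluster cells at P7 and in 0.670% of the other stromal cells. In the epithelium the Serpinf1 share hardly differed between cells with Cnmd and without at P1, at 23.2% and 23.5%. At P14, 0 of 4546 thinned cells held all 3 genes, which allows a share of up to 0.0660%.

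**Figure D5:**
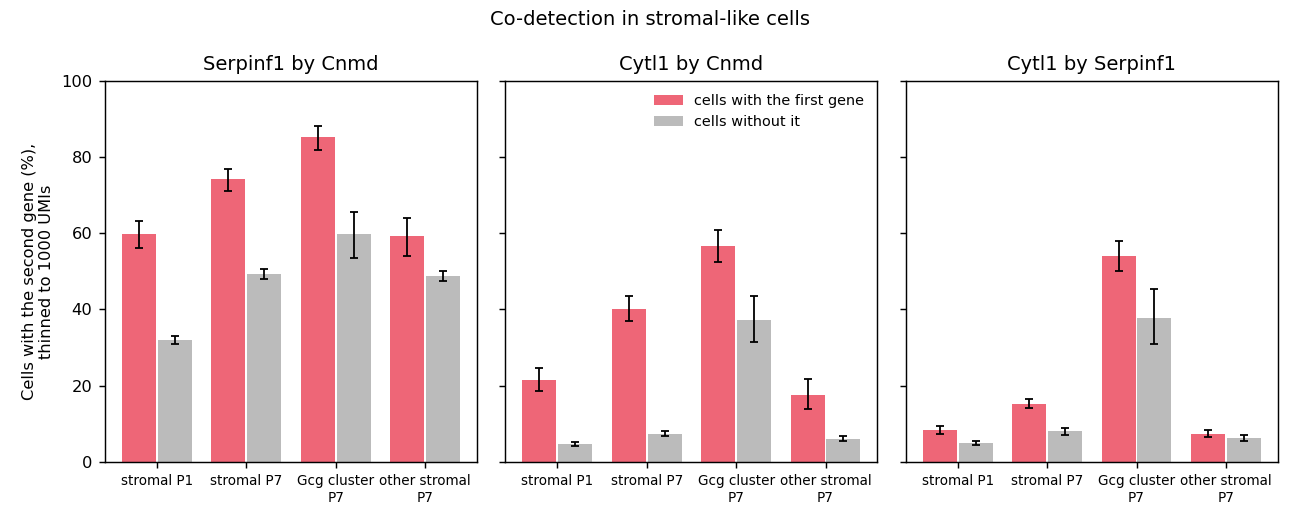
Share of cells with the second gene in percent, among thinned stromal-like cells with the first gene (red bars) and without it (grey bars), with exact 95% intervals, for all stromal cells at P1 and P7 and for the Gcg cluster and the other stromal cells at P7. For Serpinf1 by Cnmd in stromal-like cells the shares are 59.7% and 31.9% at P1, and 74.2% and 49.2% at P7.

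Detection of Acan with the other genes is given before thinning. Cnmd was present in 73 of the 245 cells with Acan at P7 and in 1 of 80 at P14, against 21.8% and 4.62% of all cells. Serpinf1 was present in 228 of 245 at P7 and in 30 of 80 at P14, against 65.7% and 11.6% of all cells. The median cell held 6878 UMIs at P7 and 1614 at P14, and the part of depth was not tested. Comp and Matn1 were found together in 1 cell at P1.

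Other genes of cartilage, taken as a list of 22, were set beside these. A gene was counted as higher or lower if it differed by at least 2-fold among the 7750 genes whose level over all cells reached 10 CPM, of which 8.61% were higher and 5.33% lower at P7 than at P1. Of the 11 matrix genes that could be counted, 4 were higher and 0 lower at P7 than at P1, with a median log2 ratio of 0.75 against 0.12 over all genes. Col9a2 went from 567 to 1317 CPM, Col11a2 from 79.0 to 300.1 CPM, Ucma from 3.69 to 20.1 CPM and Epyc from 35.8 to 81.5 CPM, where Ucma reached the limit of 10 CPM only through P7 and P14. Between P7 and P14, 13.7% of all genes were higher and 9.88% lower, while 2 matrix genes were higher and 5 lower, with a median of -0.99 against 0.02. Those higher were Epyc at 176 CPM and Ucma at 72.5 CPM, both highest in the epithelium, and those lower included Col9a1 from 3560 to 644 CPM and Matn4 from 598 to 37.5 CPM. Of the 11 genes, 5 were highest in the Gcg cluster, namely Col2a1, Col9a2, Col11a2, Matn4 and Fmod, against 2.98% of all 7750 genes.

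Among transcription factors of cartilage, Sox9 was the only gene of 3 counted that was higher at P7 than at P1, at 180.4 against 72.2 CPM. At P14, Foxc1 was higher than at P7 at 329 against 162 CPM and Sox5 lower at 6.10 against 18.5 CPM. Of 9 relatives of the 6 genes that could be counted, 1 was higher at P7, Thbs2, a relative of Comp. At P14, 1 was higher and 4 lower. The higher was Itm2a at 502 against 152 CPM, highest in endothelium, and Vcan, which encodes the proteoglycan versican, was among the lower at 24.998 against 130.5 CPM. Tnmd, the closest relative of Cnmd, stood at 3.90, 2.32 and 0 CPM, and the count of 0 at P14 allows up to 0.258 CPM.

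Of 5 receptors and proposed binding partners of Serpinf1, 4 could be counted. Plxdc1 was higher at P7 at 17.3 against 4.07 CPM, a gene that reached the limit of 10 CPM only through its P7 level, and Rpsa lower at P14 at 1719 against 3868 CPM. Of the other antiangiogenic genes, 4 of 11 could be counted, and Thbs2 and Sparc were higher at P7, at 42.3 against 20.03 CPM and 3601 against 1680 CPM, with Thbs2 lower again at P14 at 14.7 CPM. Of 8 proangiogenic genes 5 could be counted, and none differed 2-fold between P1 and P7. At P14 the vascular receptor genes Kdr, Flt1 and Tek were higher than at P7, at 65.5 against 12.5 CPM, 129 against 6.51 CPM and 93.1 against 12.0 CPM (Flt1 reached 10 CPM over all cells only through P14), while endothelial-like cells were 20.5% of cells against 1.49%. Angpt1, a ligand of the Tek receptor, was lower at P14 at 4.04 against 13.2 CPM. Of 7 proteases, Mmp14 and Htra1 could be counted, and Htra1 was lower at P14 at 94.3 against 255 CPM.

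Likeness across clusters was measured as the correlation of log2(CPM + 10) over 27 clusters of at least 50 cells, which share libraries and depth, so that it describes these libraries only. Cytl1 and Serpinf1 had r = 0.77, Cnmd and Cytl1 0.70 and Cnmd and Serpinf1 0.60, while Acan and Cnmd had r = -0.005. The genes most like Cnmd were Cpxm2 (0.86), Mia (0.81) and Fbxo2 (0.81). Those most like Serpinf1 were Tcea3 (0.93), B4galt7 (0.92) and Mdfi (0.92), and those most like Cytl1 were Ccn4 (0.88), Sncaip (0.85) and Rbpjl (0.83). Acan was most like Prss35 (0.89), Col1a2 (0.83) and Ptx3 (0.82), although it varied by only 2.02 on the log2 scale. Comp was most like Josd2, Mag and Fa2h, over a range of 0.96.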

How the data were processed

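The authors captured pooled basal membrane cells with 10x Genomics 3′ chemistry and aligned reads to rn6 with Cell Ranger (3.1.0 by the matrix header), and UMI counts per gene and barcode were deposited by the authors without normalization. The annotation is not given in the sources used here. The submitters' notes also name bcl2fastq and Seurat 3.1.1. Of 34927 barcodes, 30641 (87.7%) with more than 500 genes, fewer than 5000 and under 25% mitochondrial UMIs were kept, holding 98005495 UMIs at P1, 93080129 at P7 and 11641065 at P14. Libraries shared 53, 16 and 19 barcodes (P1 with P7, P1 with P14, P7 with P14).

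The members and lists were chosen with earlier results of these data known. Cells were clustered in Seurat 5.3.0 (R 4.3.3) on 2000 variable genes without the 6 genes described (4 of them were variable), 10 components and resolution 0.8, which gave 28 clusters. Leading genes are the 3 with the largest log2 CPM ratio (10 CPM added) among genes in at least 25% of a cluster's cells. A cluster took the class with the most markers among its 10 leading genes (at least 2), otherwise among 50 (at least 3). That rule, and the joining of connective tissue lists as stromal-like, were chosen after seeing the data. A rebuilt class may differ from the authors' names. Scrublet (scanpy 1.11.5) marked 4.87% of P1, 6.16% of P7 and 0.0379% of P14 cells, so it did not work at P14. The marked cells were kept, and 1 cluster with over 50% of them was called doublet-rich.

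Levels are summed UMIs scaled to CPM, with exact Poisson intervals, ratios have conditional binomial intervals and shares Clopper-Pearson intervals, all at 95%. Thinning to 1000 UMIs left out 37 cells at P1, 193 at P7 and 735 at P14. No difference was tested. Named genes were the 6, the lists and the 3 most alike across clusters. Genes compared between cells with and without a UMI of a gene, and the vessel, glia, limbus and bone lists used there, were chosen after values were seen. Gene counts of 2-fold changes used genes with at least 10 CPM. Python 3.11.15 was used with pandas 2.3.3, scipy 1.17.1, matplotlib 3.10.9 and numpy 2.4.6. Promoters came from RefSeq (GRCr8). The steps were tested on simulated data. Some items are not reported here.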

Additional observations from a re-analysis of the deposited data

Results flagged for a closer look

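For some genes the ratio between stages, each with at least 20 UMIs at both, lay above 1 in some cell classes and below 1 in others, with no counting interval reaching 1. With 1 library at each stage these differences between classes were not tested.

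For Cnmd, the ratio of P14 to P7 was 1.14 in cochlear epithelium-like cells (1.04 to 1.25) and 10.6 in glia-like cells (8.94 to 12.6), but 0.488 in endothelial-like cells (0.339 to 0.694) and 0.0317 in stromal-like cells (0.0247 to 0.0401). The epithelium-like cells were 1 cluster at all stages, while glia and stroma were other clusters at P14 than at P7.

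For Cytl1, the ratio of P14 to P7 was 7.53 in endothelial-like cells (4.88 to 12.2) and 0.0387 in stromal-like cells (0.0276 to 0.0527).

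For Serpinf1, the ratio of P7 to P1 was 1.90 in endothelial-like, 1.71 in glia-like, 2.35 in macrophage-like, 1.45 in neuron-like and 1.85 in stromal-like cells, and 0.934 in dividing cells (0.888 to 0.982). Within the dividing class the ratio was 1.39 in the cluster led by Cenpf, with 706 cells at P1 and 395 at P7, and 1.92 in the cluster led by Ube2c, which had a lower level and 252 and 564 cells. The part of stromal RNA in the levels of the other classes was not tested.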

How the results depend on the processing

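Each stage was 1 library, so differences carry counting error only, and the P14 library was the shallowest. No paired analysis was possible because the libraries carry no replicate numbers and no result comes from a test. Of 48 stage differences on the log2 scale, 35 moved by less than their interval. Matn1, whose intervals spanned 1, changed sign in 3, with P7 against P1 (0.07) at -0.69 with a 10% mitochondrial limit and -0.03 without the cells Scrublet marked, and P14 against P7 (0.80) at -0.26 as a mean over cells, while no other gene changed sign. For P7 against P1, Cnmd (1.16 as reported) was 1.25 with a 10% mitochondrial limit, 1.28 with no filter and 0.75 as a mean over cells, Serpinf1 (0.73) was 0.83, 0.80 and 0.61, and Cytl1 (1.31) was 1.40 with no filter and 0.89 as a mean over cells. For P14 against P7, Cnmd (-1.87) was -2.40 with the 10% limit and -2.04 as a mean over cells, Serpinf1 (-3.26) was -3.41 and -2.90, and Cytl1 (-2.46) was -1.75 as a mean over cells.

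Class shares moved most when each cell was classed by its own markers, which called 70.1% of cells stromal-like against 59.6% by cluster, including 71.8% of epithelium-like cells. The stromal share of Cnmd (71.6%) was then 91.5%, of Serpinf1 (85.8%) 97.3%, of Cytl1 (88.5%) 97.1% and of Acan (81.9%) 97.0%. At P14 the epithelial share of Cnmd (58.1%) was 0.106%, the endothelial share of Cytl1 (78.0%) 61.2% and the stromal share of Acan (91.1%) 96.0%, and the glial share of Comp (57.3%) was 66.2%. At resolution 0.4 Cnmd was 72.0% and Serpinf1 86.4%. At resolution 1.2 Cnmd, Serpinf1 and Cytl1 were 70.4%, 81.1% and 85.0%. With the 6 genes kept for clustering, Cnmd, Serpinf1, Cytl1 and Acan were 69.9%, 77.4%, 84.0% and 71.2%. Without the cells Scrublet marked, Cnmd, Serpinf1 and Cytl1 were 75.3%, 90.4% and 93.2%. Without the doublet-rich cluster, an alternative added after seeing the data, Cnmd, Serpinf1, Cytl1 and Acan were 74.6%, 89.6%, 92.6% and 85.5%.

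Co-detection is given as the log2 ratio of shares in cells with and without the first gene. Without thinning, Serpinf1 by Cnmd was 0.52 at P1 and 0.48 at P7 over all cells (1.12 and 1.05 thinned) and 0.28 and 0.084 in stroma (0.90 and 0.59), Cytl1 by Cnmd was 1.81 and 1.99 over all cells and 1.67 and 1.61 in stroma, and Cytl1 by Serpinf1 was 1.96 and 2.62 over all cells and 1.01 in P1 stroma. Thinned to 500 UMIs, Serpinf1 by Cnmd was 1.36 and 1.38 over all cells and 1.21 and 0.91 in stroma, and Cytl1 by Cnmd was 2.52 in P1 stroma. Outside the Gcg cluster, alternatives added after seeing the data gave P7 against P1 for Cnmd (-0.01) as -0.14 at resolution 0.4 and -0.27 with the 6 genes kept, for Serpinf1 (0.55) as 0.50 and for Cytl1 (0.34) as 0.20, both with the 6 genes kept. The cause of these shifts was not tested.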

Other observations

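Outside the named classes, Cnmd, Serpinf1 and Cytl1 were also found in an unnamed cluster of shallow cells led by the globin gene Hba-a2 and by LOC689064 and LOC103694857. Its 228 cells at P7 had a median of 1167 UMIs and held 419.6 CPM of Cnmd (362 to 484), 897 CPM of Serpinf1 (812 to 989.9) and 135 CPM of Cytl1 (103 to 173). The 451 cells of the doublet-rich cluster at P7, with Pou3f1 among its leading genes, had a median of 11672 UMIs and held 266 CPM of Cnmd, 640.5 CPM of Serpinf1 and 109.6 CPM of Cytl1. At P1 the same cluster had 256 cells with 78.8, 388 and 46.7 CPM.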
